A study of Mus musculus with 9 samples.

Results

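The genes described here encode the machinery that fills, docks, fuses and recovers synaptic vesicles. They were taken by gene symbol alone, with no measured value: synapsins, synaptophysins and SV2 proteins, synaptotagmins, the SNAREs of the vesicle and of the target membrane, the proteins that dock, prime or clamp them, the proteins that take SNARE complexes apart, and the dynamins, synaptojanins and AP180 (Snap91) that recover vesicle membrane. The rule found 57 of the 12275 genes listed in at least 1 of the 2 deposited tables, of which 48 stood in the table of BA and AV mice, 54 in the table of BA and AP mice and 45 in both. In the GENCODE M21 annotation 81 symbols follow the rule, and 24 of them had no row, among them Snap25, Syp, Syt1, Syt4, Stx1a, Syn2, Sv2b and Cplx1, which were not analysed here. Both tables had passed a filter on low counts, and a gene can pass such a filter through the group in which it is high, so the counts below describe the listed genes only.

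Neurons of the amygdala were sorted by their yellow fluorescence from single mice of the line B6.Cg-Tg(Thy1-YFP)HJrs/J, and each mouse gave 1 RNA library. All groups carried this transgene, in which the Thy1 promoter drives YFP in pyramidal neurons of the amygdala, cortex and hippocampus and in some neurons elsewhere, and no treatment is named for any group. Mice were grouped by their behaviour in a task that sets approach against avoidance, as balancing (BA), avoiding (AV) or approaching (AP), with 3 mice deposited for each, and tissue was taken 1 month after the task. The AV mouse with replicate number 2 had been removed by the authors as an outlier and was not used here, so 2 AV mice and 3 AP mice were each compared with the same 3 BA mice. Age and sex are not given in the sources used here. The values are normalized expression signals per gene and mouse, made separately for each table, and a log2 fold change is the difference of group means of log2(value + 1), positive where AV or AP mice were higher. A gene counted as called when its limma p, adjusted by the Benjamini-Hochberg method, was under 0.05, with the adjustment over all 9872 genes of the BA vs AV table or all 11820 genes of the BA vs AP table.

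A presynaptic terminal keeps its transmitter in vesicles that synapsins tether and that RIM and Munc13 proteins dock and prime at the active zone. Release follows when the vesicle SNARE synaptobrevin (Vamp2) zippers with syntaxin and SNAP-25 on the plasma membrane, under the control of complexins and the calcium sensors of the synaptotagmin family. NSF and its SNAP adaptors then take the complexes apart, and clathrin, dynamin and synaptojanin return the membrane. Most of these proteins have close relatives that serve the Golgi, endosomes and the cell surface in all cells. The genes below are described as the form used mainly by neurons (neuronal form) or as the widely expressed form. This division was made from general knowledge with earlier results of these data known. Nsf was counted with the neuronal forms, although NSF takes SNARE complexes apart in all cells.

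The label pyramidal neurons was checked against 9 markers of that cell type, of which only Camk2a and Nrgn were listed, while Slc17a7, Neurod6, Tbr1 and the others were not analysed here. The values of Camk2a and Nrgn together summed to between 67.1 and 93.0 in BA mice and to 1785 and 3096 in the AV mice, and to between 79.7 and 118.8 in BA mice and to 82.5, 955 and 1798 in the AP mice of the other table. All 7 oligodendrocyte markers were listed in both tables, and their sum lay between 187300 and 232350 in BA mice and at 53387 and 82160 in AV mice. In the BA vs AP table it lay between 220760 and 282640 in BA mice and within that range, between 223450 and 276190, in AP mice, so that myelin genes exceeded the pyramidal markers in every mouse. The sum of 6 listed astrocyte markers was between 9816 and 15341 in BA mice and 30886 and 59883 in AV mice, and the sum of 3 listed microglia markers was between 237 and 354 and was 722 and 939. In the BA vs AP table the sum of 7 astrocyte markers was between 12409 and 17313 in BA mice and 9837, 52709 and 29854 in AP replicates 1, 2 and 3. Of 11 microglia markers the BA vs AP table lists 10, none called by limma but each with an unadjusted p under 0.05, and their sum lay between 1451 and 2917 in BA mice and between 3912 and 6839 in AP mice. Interneuron markers had no row in the BA vs AV table, and 1 of 7, Gad2, had one in the BA vs AP table. The part of these markers in the results below was not tested, and in RNA pooled over sorted cells, fewer cells of a type and less RNA per cell cannot be told apart.

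In AV mice most of the neuronal forms were higher than in BA mice, while 5 of the 6 widely expressed forms called were lower. Of the 48 listed genes 19 were called, 39.6% beside 29.7% of all genes in this table, with 11 higher beside 13.6% of all genes and 8 lower beside 16.2%. The 17 listed neuronal forms held 11 of the calls, 9 higher (among them Syn1, Dnm1, Snap91, Stxbp5l, Nsf, Vamp2 and Rims2) and 2 lower (Dnm3 and Sv2a), and their median log2 fold change was 1.15, where that of all genes was -0.03. Among the 25 listed widely expressed forms 1 was called higher (Snap47), 5 were called lower (Stx5a, Stxbp3, Sypl, Synj2 and Stx17) and 19 did not pass. Their median log2 fold change was -0.31. Calls reached 24% of the widely expressed forms and 64.7% of the neuronal forms, beside 29.7% of all genes. Of 6 genes given to neither class, Syt6 was called higher and Syt11 lower. Ranges of AV and BA mice were apart in 36 of the 48 genes, 20 higher and 16 lower, and in 58.9% of all genes, 27.7% higher and 31.3% lower. In the same AV mice both listed pyramidal markers, 3 of 5 pan-neuronal, 4 of 6 astrocyte and 3 of 3 microglia markers were called higher. Against them, 5 of 7 oligodendrocyte markers were called lower. The pan-neuronal marker Elavl3 was lower in both AV mice than in any BA mouse (log2 fold change -0.62) but was not called. The oligodendrocyte precursor marker Pdgfra was called higher, and 1 of 3 listed endothelial markers, Kdr, lower. The part of all these markers in the counts was not tested.

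How firmly these calls stood differed between genes. With each of the 5 mice left out in turn, 11 of the 19 calls held every time, 8 of them higher (among them Dnm1, Nsf, Snap91, Stxbp5l, Syn1 and Vamp2) and 3 lower (Dnm3, Stxbp3 and Sypl). The number of calls was 12 without BA replicate 2 and 14 without BA replicate 1, and calls in the lower direction were then 4 and 3, while the share of all genes called fell from 29.7% to 15.4% and 16.1%. Scaling also mattered for the direction counts: with every mouse rescaled to the same sum, the median log2 fold change of all genes moved by 0.19, from -0.03 to 0.17, the called genes became 1799 higher and 1219 lower in place of 1338 and 1596, and the listed vesicle and SNARE genes 13 higher and 7 lower. With each mouse centred on its median they became 11 higher and 13 lower. No called gene changed direction under either scaling.

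**Figure D1:**
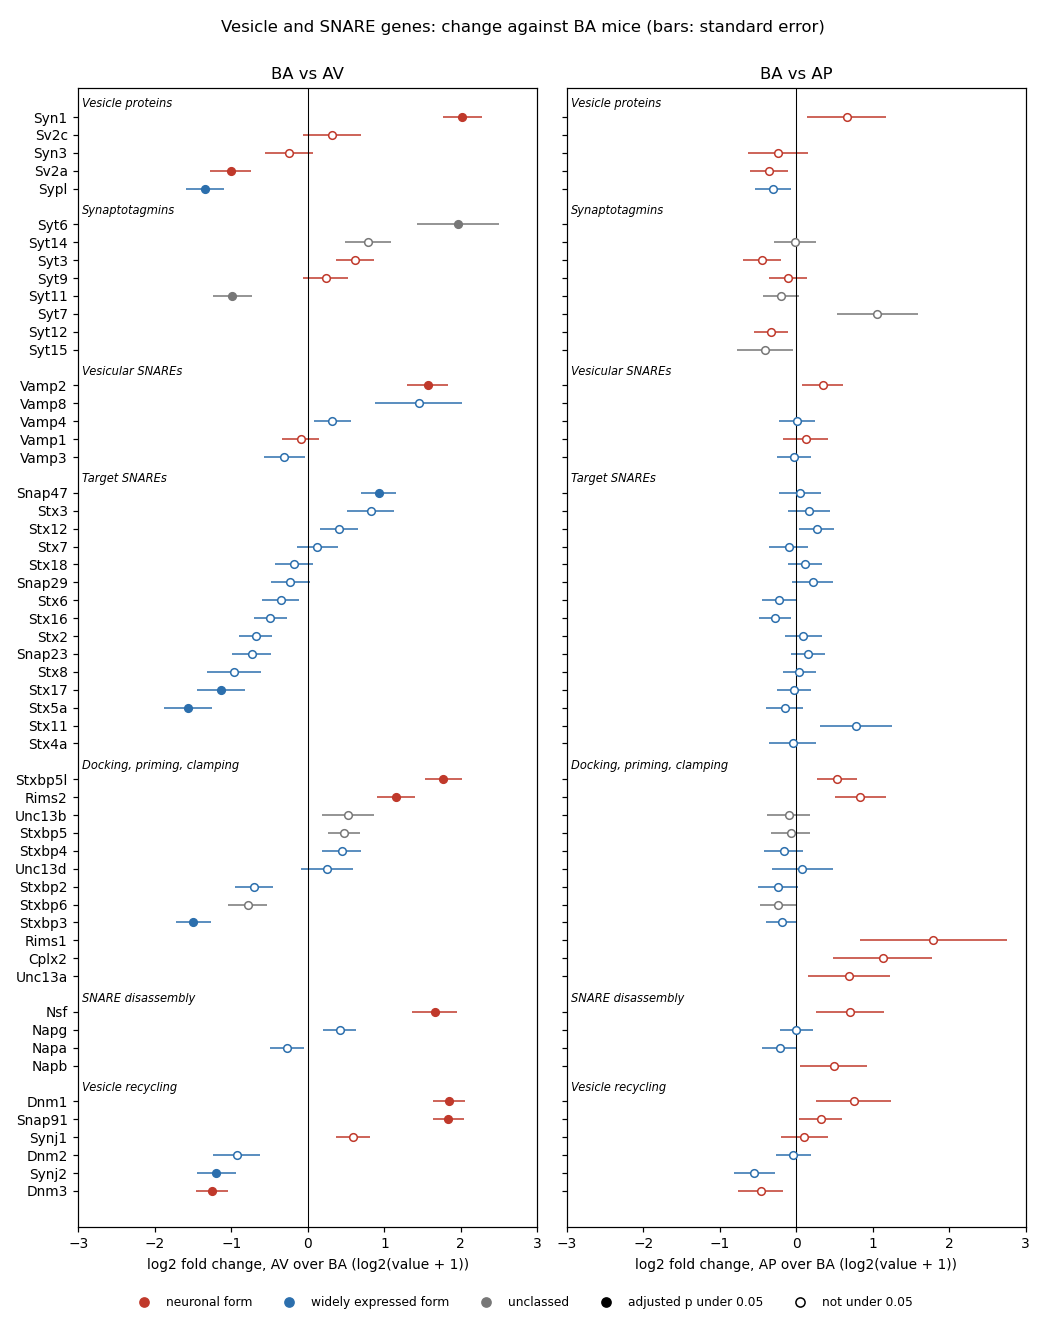
Log2 fold change of the vesicle and SNARE genes against BA mice, on the log2(value + 1) scale, for AV mice (left) and AP mice (right), ordered by role, with bars for the standard error from limma. Filled points passed an adjusted p under 0.05, which 17 of the 46 genes drawn did in the AV comparison and 0 of 52 in the AP comparison, and among the red points (neuronal forms) 7 of the 9 filled ones lie to the right of 0.

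Among the proteins of the vesicle itself, a synapsin rose and 2 membrane proteins fell, where 13.6% of all genes were called higher and 16.2% lower. Syn1, which tethers vesicles to one another in the reserve pool, was listed at 98.0, 124 and 97.0 in the BA mice and at 506 and 366 in the AV mice. Each AV mouse thus stood far above all BA mice, and the log2 fold change was 2.02 ± 0.25 (SE, adjusted p = 0.00391 from limma). Sypl, the synaptophysin relative found outside neurons as well, had values of 976, 1366 and 1195 in BA mice and 501 and 421 in AV mice, lower in both. Its log2 fold change was -1.34 ± 0.24 (adjusted p = 0.00902 from limma). Sv2a, a vesicle glycoprotein of neurons and endocrine cells, moved against most other neuronal forms, from 957, 1140 and 783 in BA mice to 411 and 539 in AV mice. This difference of -1.01 ± 0.26 on the log2 scale had an adjusted p of 0.0285 in limma, and the call was lost without AV replicate 1 or BA replicate 1 or 2, with adjusted p up to 0.0980. Syn3 and Sv2c, the remaining listed genes of this role, had log2 fold changes of -0.24 and 0.32 and overlapping groups.

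Syn1 and Stxbp3 are shown by their upstream sequence because they were called in opposite directions and both hold the palindrome TGACGTCA, the cyclic AMP response element. Syn1 also holds TTCAGCACC, the left part of the RE1 element to which the repressor REST binds. Capitals mark these letters, and the sequences are RefSeq promoters of GRCm38.p6, read from 250 bases before the RefSeq start and ended where the GENCODE gene begins, from chrX:20921005-20921168 and chr3:108840527-108840752, both on the minus strand.
Syn1: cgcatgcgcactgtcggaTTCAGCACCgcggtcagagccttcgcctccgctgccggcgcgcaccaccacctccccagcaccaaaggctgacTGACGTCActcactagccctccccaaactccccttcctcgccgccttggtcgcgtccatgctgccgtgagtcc
Stxbp3: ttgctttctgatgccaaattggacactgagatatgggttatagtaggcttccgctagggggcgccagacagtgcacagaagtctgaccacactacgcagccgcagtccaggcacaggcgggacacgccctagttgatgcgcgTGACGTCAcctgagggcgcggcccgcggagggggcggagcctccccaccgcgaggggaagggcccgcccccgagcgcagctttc
In Syn1 the RE1 letters began 232 and the palindrome 159 bases before the RefSeq start, and in Stxbp3 the palindrome began 108 bases before it. Of 32851 promoters, 99 (0.301%) held the RE1 letters on either strand within the 250 bases before the start and 508 (1.55%) held the palindrome. Among 57 promoters matched to 47 of the genes, the RE1 letters stood in Syn1 and the palindrome in Syn1 and Stxbp3, and the patterns shared no bases. These 2 patterns were chosen after the matches of 11 letter patterns had been seen, and a match describes letters and not a bound site. Among the 11, the longer patterns that span both parts of RE1 stood in none of the 57 promoters, that of Syn1 included.

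Of the 5 listed vesicle SNAREs 1 was called, Vamp2, where 29.7% of all genes were called. Vamp2, the synaptobrevin of most brain synapses, was listed at 395, 490 and 501 in BA mice and at 1677 and 1111 in AV mice. The lower AV mouse had more than the highest BA mouse, and the log2 fold change was 1.57 ± 0.27 (adjusted p = 0.00734 from limma). Vamp3, or cellubrevin, which serves endosomes and secretion in many cells, had 452, 543 and 431 in BA mice and 312 and 468 in AV mice. Those groups overlapped, and the log2 fold change of -0.31 ± 0.26 did not pass. Vamp1, the second neuronal synaptobrevin, stood at 87.3, 92.7 and 115 in BA mice against 80.9 and 103 in AV mice, a log2 difference of -0.10 that turned to 0.10 when mice were rescaled to the same sum. Vamp4 (0.32) and Vamp8 (1.45, adjusted p = 0.0958 from limma) did not pass either.

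Of the 14 listed SNAREs of the target membrane 28.6% were called, close to the 29.7% of all genes. Among the widely expressed syntaxins and SNAP proteins Stx5a and Stx17 fell and Snap47 rose. Stx5a, the syntaxin of traffic between endoplasmic reticulum and Golgi, had 453, 364 and 354 in BA mice and 95.3 and 178 in AV mice, with no overlap. The log2 difference of -1.57 ± 0.32 passed in limma (adjusted p = 0.0124) but not without BA replicate 1 (0.0542). Stx17, which acts in fusion of autophagosomes, fell by 1.13 on the log2 scale, a call kept in 1 of the 5 fits that leave out a mouse. Snap47, a SNAP-25 relative, was the only widely expressed form called higher, with 137, 140 and 122 in BA mice and 289 and 223 in AV mice (log2 fold change 0.93 ± 0.23, adjusted p = 0.0246 from limma). That call too held in 1 of the 5 fits, with adjusted p up to 0.0819, and 307 exonic bases of Snap47 lie opposite Jmjd4, while the sources used here do not state whether counting used the strand of the libraries. Exons of other genes also lie opposite Syt6 (505 bases), Dnm3 (397) and Synj2 (297), all called in AV mice, and opposite Unc13a (495), among others. Snap23, the form of SNAP-25 used outside neurons, had a log2 fold change of -0.74 ± 0.25 that did not pass (adjusted p = 0.0650 from limma). The rest of the genes described for this role ranged from -0.97 (Stx8) to 0.82 (Stx3), and none passed.

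**Figure D2:**
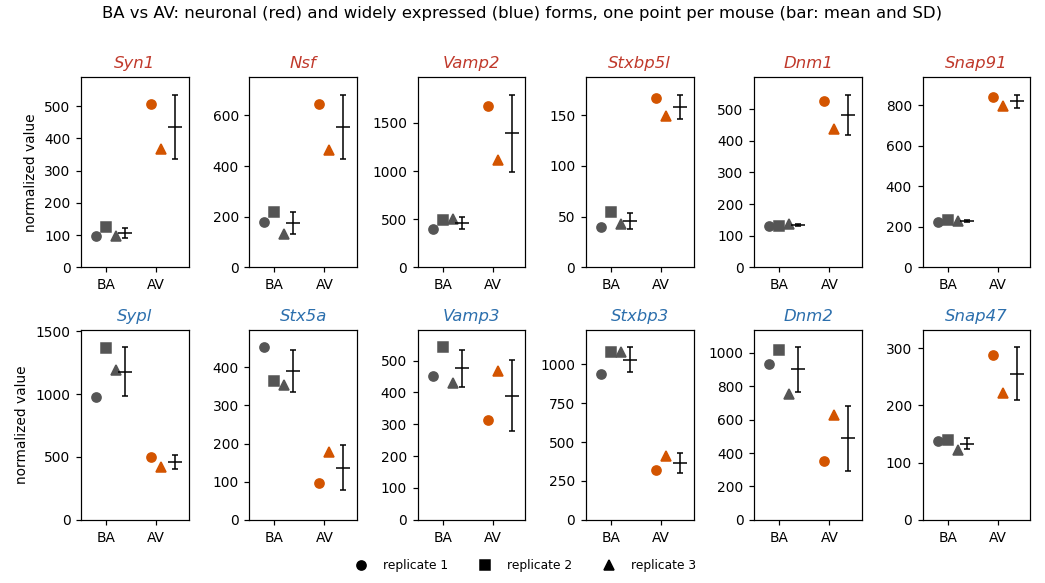
Normalized value of 12 vesicle and SNARE genes in each BA mouse (grey, n = 3) and AV mouse (orange, n = 2), with a bar for the mean and SD and a vertical axis from 0. In the neuronal forms of the upper row both AV mice lie above all BA mice, in Sypl, Stx5a, Stxbp3 and Dnm2 both lie below them, in Snap47 above them, and in Vamp3 the groups overlap.

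Among the 10 listed genes for proteins that dock, prime or clamp, 40% were called beside 29.7% of all genes, in both directions. Stxbp3, a syntaxin-binding protein which serves surface fusion outside neurons, was listed at 934, 1077 and 1076 in BA mice and at 320 and 411 in AV mice. The groups lay far apart, with a log2 fold change of -1.50 ± 0.23 (adjusted p = 0.00558 from limma). Its relative Stxbp2 had a log2 fold change of -0.70 that did not pass (adjusted p = 0.0719 from limma). Stxbp5l, a tomosyn that holds syntaxin in an inactive state, rose by 1.77 ± 0.24 on the log2 scale, from values between 39.6 and 55.1 to 149 and 167. Its relative Stxbp5 was at 0.47 and did not pass. Rims2, a scaffold of the active zone, was listed at 440, 372 and 422 in BA mice and at 773 and 1076 in AV mice, a log2 difference of 1.15 ± 0.24 (adjusted p = 0.0147 from limma) that missed the threshold without BA replicate 2 (0.0636). The priming factors Unc13b and Unc13d had log2 fold changes of 0.52 and 0.25 and did not pass, nor did Stxbp4 (0.44) and Stxbp6 (-0.79), while Rims1, Unc13a and Cplx2 had no row in this table.

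The synaptotagmins gave 1 call in each direction among 5 listed genes, where 13.6% of all genes were called higher and 16.2% lower. Syt11, which does not bind calcium and acts in membrane retrieval, had values of 4800, 5977 and 4466 in BA mice and 2193 and 2942 in AV mice. Corrected for exon length it was the most abundant of the listed genes in every group of both tables, at 976 ± 152 per kb (SD, n = 3) in BA mice of the BA vs AV table, where Sv2a followed with 207 ± 38.5. Its log2 fold change of -0.99 ± 0.25 (adjusted p = 0.0276 from limma) lost the call without AV replicate 1 or any BA mouse, with adjusted p up to 0.0958. Syt6 rose by 1.97 ± 0.54 on the log2 scale from low values, 12.9, 6.45 and 3.16 in BA mice and 19.8 and 41.0 in AV mice, and lost the call without AV replicate 3 or BA replicate 2 or 3 (adjusted p up to 0.105 from limma). Syt3, Syt9 and Syt14 had log2 fold changes of 0.62, 0.23 and 0.79 and did not pass.

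In the disassembly and recycling of vesicles 3 neuronal forms rose (Nsf, Dnm1 and Snap91), 1 fell (Dnm3) and 1 did not pass (Synj1). Calls were made for 1 of 3 listed disassembly genes and 4 of 6 recycling genes, beside 29.7% of all genes. Of all genes 13.6% were called higher and 16.2% lower. Nsf, the ATPase that pulls SNARE complexes apart, was listed at 179, 218 and 132 in BA mice and at 645 and 464 in AV mice, higher on the log2 scale by 1.66 ± 0.29 (adjusted p = 0.00835 from limma). Its adaptors Napa (-0.27) and Napg (0.42), found in all cells, did not pass. Dnm1, the dynamin of nerve terminals, went from 131, 132 and 136 in BA mice to 527 and 437 in AV mice, and Snap91, the clathrin assembly protein AP180, from 226, 234 and 227 to 843 and 797. In both genes the BA mice lay within a narrow range far below the AV mice, with log2 fold changes of 1.84 ± 0.21 and 1.84 ± 0.21 (adjusted p = 0.00328 for each from limma). Dnm3, the third dynamin, which is found in brain and testis, fell instead, from 2621, 2556 and 2660 in BA mice to 1158 and 1044 in AV mice (-1.25 ± 0.21, adjusted p = 0.00695 from limma). Dnm2, the dynamin of all cells, had values of 934, 1015 and 754 in BA mice and 351 and 626 in AV mice, a log2 difference of -0.93 ± 0.31 that did not pass (adjusted p = 0.0614 from limma) and that passed without AV replicate 3 (-1.35, adjusted p = 0.00699). Synj1, the synaptojanin of synapses, had a log2 fold change of 0.59 ± 0.22 that did not pass (adjusted p = 0.0880 from limma). Synj2, its widely expressed relative, fell from 1562, 1217 and 1119 to 639 and 493 (-1.20 ± 0.26, adjusted p = 0.0152 from limma), a call lost without BA replicate 1 or 2 (0.0558 and 0.0547).

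The order of these genes by length-corrected level differed between the groups. In BA mice Syt11, Sv2a, Stxbp3, Dnm2, Vamp3, Synj2, Sypl, Napa, Stx12 and Vamp2 led, with values per kb from 976 down to 121, and each gene after Syt11 overlapped the next in its range over mice. In AV mice Vamp2 had rank 2 with 366 ± 105 per kb (SD, n = 2) and Syn1 rank 5 with 132 ± 30.1. The ranges of Syt11 and Vamp2 overlapped there, those of Vamp2 and the next gene, Stx12, did not, and each of the later ones overlapped its follower.

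The neuronal and the widely expressed form of a protein can be set against each other within a mouse. For Dnm1 over Dnm2 the log2 ratio of length-corrected values was -2.82, -2.92 and -2.45 in BA mice and 0.61 and -0.50 in AV mice, so that the dynamin of all cells exceeded that of nerve terminals in every BA mouse and in 1 of the AV mice. For Vamp2 over Vamp3 the ratios were -0.59, -0.55 and -0.18 against 2.03 and 0.85, and for Synj1 over Synj2 -1.30, -0.69 and -0.88 against 0.72 and 0.94. The mean ratio was thus higher in AV mice by 2.79, 1.88 and 1.79, and each AV mouse lay above each BA mouse in all 3 pairs. With 2 against 3 mice the two-sided exact permutation test gave p = 0.2 for each pair, also after adjustment over the 3 pairs, which is the smallest value it can give.

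**Figure D3:**
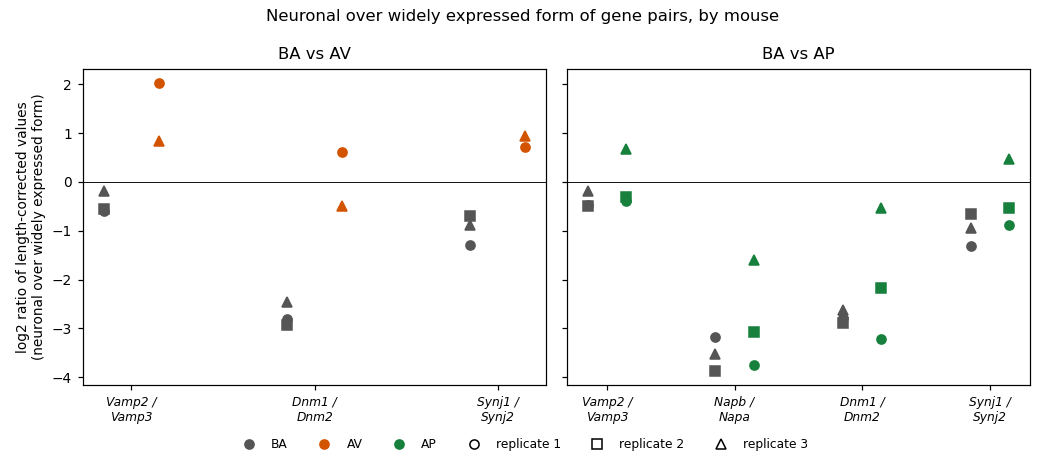
Log2 ratio of the length-corrected value of the neuronal form over that of the widely expressed form in each mouse, for 3 pairs in the BA vs AV table (left) and 4 pairs in the BA vs AP table (right). AV mice (orange) lie above BA mice (grey) in all 3 pairs. Of the AP mice (green), replicate 3 lies above all BA mice in each of the 4 pairs, and replicate 2 in all but Vamp2 over Vamp3.

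Between BA and AP mice no vesicle or SNARE gene was called. The test in limma called 0.00846% of all genes, 1 gene. An unadjusted p under 0.05 was reached by 1 of the 54 listed genes, Rims2 (higher), and by 7.77% of all genes, 4.99% higher. Ranges were apart in 2 of the 54, Rims2 (higher) and Stx16 (lower), and in 12.1% of all genes, 5.64% higher and 6.45% lower. The median log2 fold change was 0.39 over the 21 listed neuronal forms, of which 15 were above 0, and -0.03 over the 26 widely expressed forms, as it was over all genes. Without AP replicate 3 the median of the neuronal forms was 0.015. These fold changes use the same BA mice as those of the AV mice and are not independent of them.

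Most of the positive values came from AP replicate 3. The median log2 difference from the BA mean over the 21 neuronal forms was -0.09 in AP replicate 1, 0.08 in AP replicate 2 and 0.90 in AP replicate 3. The AV mice had 0.91 and 1.27 over the 17 neuronal forms of their own, separately normalized table. Over 5 pan-neuronal markers the same median was -0.12, -0.13 and 1.08 in AP replicates 1, 2 and 3. This median was 2.06 and 2.16 in the AV mice. Of the 5 markers 3 had a positive log2 fold change in AP mice, while Tubb3 (-0.23) and Elavl3 (-0.27) did not. The part of these markers was not tested. Syn1 was listed at 115, 167 and 112 in BA mice and at 101, 171 and 495 in AP mice. Similar orders were found for Nsf (222, 271 and 142 against 203, 271 and 668) and Dnm1 (154, 165 and 150 against 127, 237 and 608). Unc13a, the Munc13 that primes vesicles at most excitatory synapses, had 60.6, 104 and 60.8 in BA mice and 70.2, 77.1 and 302 in AP mice. In each of these genes AP replicate 1 lay within or below the range of the BA mice. Their log2 fold changes ranged from 0.66 (Syn1) to 0.75 (Dnm1) with adjusted p of at least 0.717 from limma.

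Some genes of the active zone were high in AP replicates 2 and 3. Rims1, a scaffold that ties vesicles to calcium channels, was listed at 81.9, 161 and 91.5 in BA mice and at 58.9, 828 and 1042 in AP mice. It had the largest log2 fold change of the 54 genes, 1.79 ± 0.96 (adjusted p = 0.696 from limma), and it was called only without AP replicate 1 (3.11, adjusted p = 0.0389). Rims2 had 502, 478 and 479 in BA mice and 526, 930 and 1342 in AP mice (0.84 ± 0.34, adjusted p = 0.606 from limma). Cplx2, a complexin that clamps and speeds fusion, followed the same order with 85.6, 102 and 158 against 78.3, 316 and 588 (1.13 ± 0.65, adjusted p = 0.708 from limma). Syt7, a slow calcium sensor, had 20.1, 24.5 and 15.5 in BA mice and 16.8, 48.0 and 90.7 in AP mice. The 2 pyramidal markers were high in the same 2 AP mice, with sums of 955 and 1798 beside 82.5 in AP replicate 1. So were the 7 astrocyte markers, with sums of 52709 and 29854 beside 9837, and the part of both marker lists in these values was not tested. Rims1, Cplx2, Unc13a, Syt7 and Napb had no row in the BA vs AV table.

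**Figure D4:**
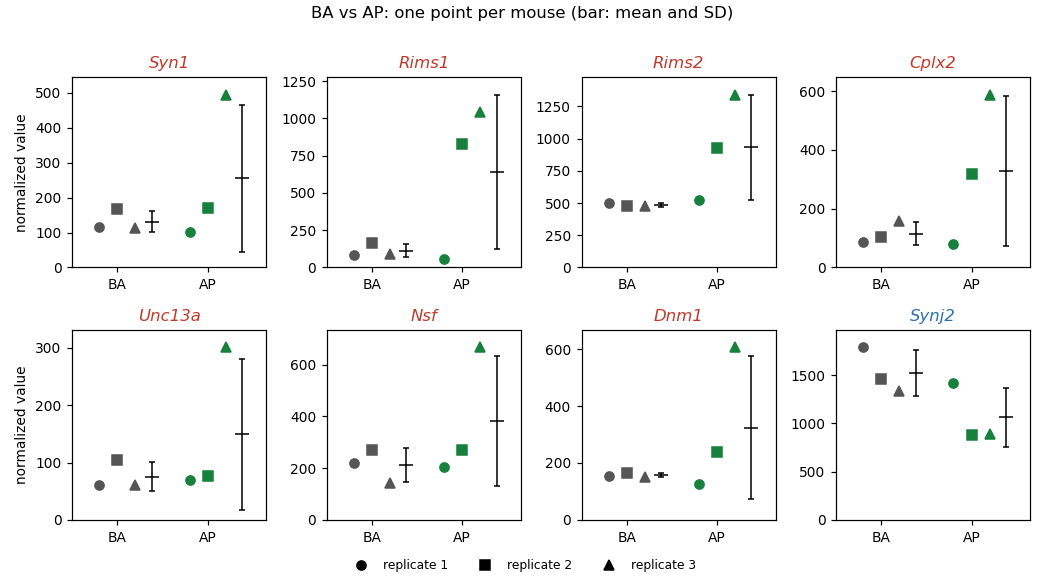
Normalized value of 8 vesicle and SNARE genes in each BA mouse (grey, n = 3) and AP mouse (green, n = 3), with a bar for the mean and SD and a vertical axis from 0. AP replicate 3 (triangle) is the highest mouse in the 7 neuronal forms, AP replicate 2 (square) is also well above all BA mice in Rims1, Rims2, Cplx2 and Dnm1, and AP replicate 1 (circle) is near the BA mice.

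None of the widely expressed forms and the remaining genes passed between BA and AP mice. Synj2 had the most negative log2 fold change, -0.55 ± 0.27, with 1792, 1456 and 1331 in BA mice and 1419, 876 and 891 in AP mice (adjusted p = 0.683 from limma). Dnm3, Syt3 and Sv2a had -0.47, -0.45 and -0.35. Stx16, of the trans-Golgi network, was lower in every AP mouse (364, 294 and 336) than in any BA mouse (421, 384 and 396), -0.28 on the log2 scale (adjusted p = 0.754 from limma). Stxbp3 was at -0.19, Sypl at -0.30, Napa at -0.22, Stxbp2 at -0.24 and Syt11 at -0.20, while Vamp3 (-0.03), Dnm2 (-0.04) and Stx4a (-0.05) lay near 0 and changed sign when single mice were left out. Stx11, found mainly in immune cells, was listed at 3.07 and 3.02 in BA replicates 1 and 2, below the level of 3 reads (5.20 and 5.08), and between 8.38 and 13.0 in the other mice. The microglia markers were higher in the same mice, summing to 2917 in BA replicate 3 beside 1530 and 1451 in the other BA mice, and their part was not tested.

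Ratios within AP mice followed the same division between mice. Dnm1 over Dnm2 was -2.78, -2.89 and -2.62 on the log2 scale in BA mice and -3.21, -2.17 and -0.54 in AP mice. Over 4 pairs, with Napb over Napa added, the mean ratio was higher in AP mice by 0.37 to 0.79. The two-sided exact permutation p ranged from 0.2 to 0.5, all 0.5 after adjustment over the 4 pairs, where 3 against 3 mice can give no less than 0.1.

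**Figure D5:**
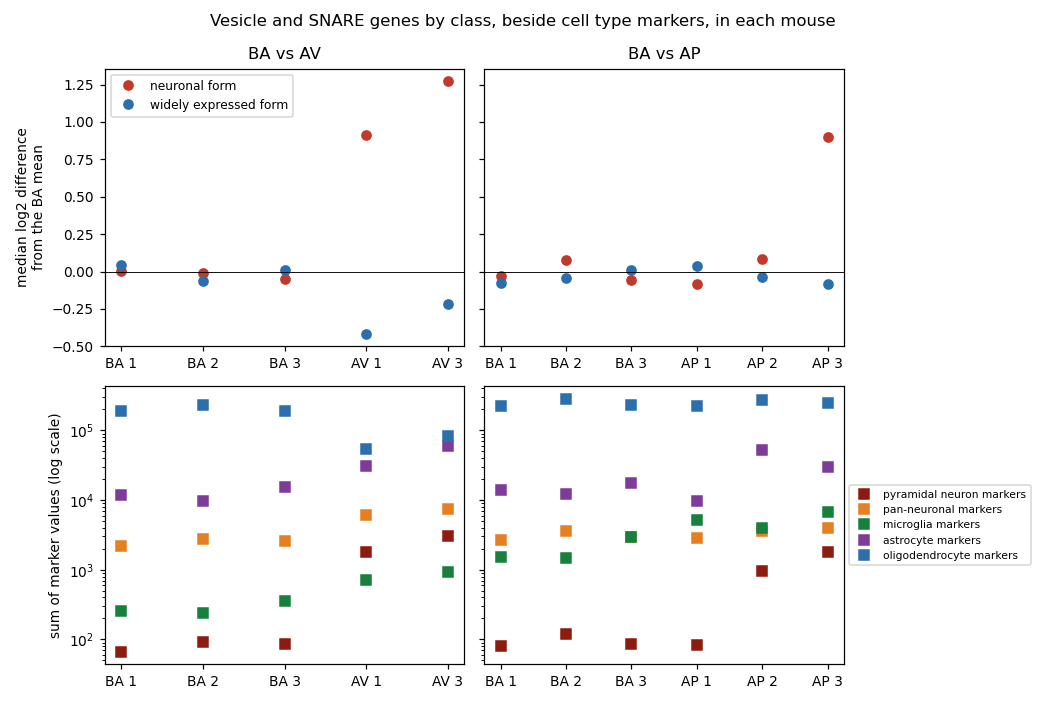
Upper panels: median log2 difference of each mouse from the BA mean over the neuronal forms (red) and the widely expressed forms (blue) of the vesicle and SNARE genes. Lower panels: summed values of the listed markers of 5 cell types in the same mice on a log scale, where pyramidal markers are high in AV 1, AV 3, AP 2 and AP 3 and oligodendrocyte markers are low only in AV 1 and AV 3.

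Partners of this machinery in the active zone were more often called higher than not called in AV mice. Of 18 listed genes of the active zone and of priming, 11 were called, all higher, with a median log2 fold change of 0.91, where 29.7% of all genes were called and 13.6% were called higher. Bsn (bassoon), a giant scaffold of the active zone, rose most, from 83.5, 99.8 and 78.0 in BA mice to 1034 and 1729 in AV mice (3.93 ± 0.29, adjusted p = 0.00256 from limma). Others that rose were Ppfia4, a liprin (2.86), Rab3c, a vesicle GTPase (2.24), and Cadps2, a priming factor of dense-core vesicles (1.70), while Pclo (piccolo) at 0.83 did not pass. Of 19 listed genes of clathrin-mediated retrieval 10 were called beside the same 29.7% of all genes, 7 higher (13.6% of all genes), among them Pacsin1 (1.94), the adaptor subunit Ap2a2 (1.40) and the endophilin Sh3gl2 (1.24), and 3 lower (16.2% of all genes), Picalm (-1.24), Bin1 (-1.21) and Itsn2 (-1.18). Picalm is the widely expressed relative of Snap91. None of 6 other listed vesicle membrane proteins, of the Scamp, synaptogyrin and synaptoporin families, was called or had an unadjusted p under 0.05, which 43.2% of all genes had. In AP mice none of 19, 21 and 9 listed genes of the same groups was called. An unadjusted p under 0.05 was reached by 1 of the 19, Ppfia4 (1.60), and by none of the 21. It was also reached by 1 of the 9, Slc30a3, the zinc transporter of glutamatergic vesicles, and by 7.77% of all genes. Slc30a3 was listed at 2, the lowest value of its table, in all BA mice and at 5.41, 8.38 and 10.7 in AP mice, where the level of 3 reads was 5.41, 4.13 and 5.24. With the BA mice all at the lowest value and without spread, Slc30a3 could pass the filter only through AP mice. Its p is therefore not read as a difference.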

How the data were processed

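Sorted YFP-positive amygdala neurons of single mice were sequenced as stranded paired-end libraries made from very little RNA. The authors deposited a normalized signal per gene and mouse in 2 tables, after TMM normalization and a filter on low counts. The study's methods name batch correction with ARSyN on 9872 filtered genes, the number in the BA vs AV table, without naming the batches or saying whether the deposited values carry it. The submitters' processing notes name bcl2fastq 2.20, Salmon 1.2 and GRCm38.p6. A table column exists for 3 BA and 2 AV mice or for the same 3 BA and 3 AP mice. AV replicate 2 was left out. Values of a mouse summed to between 3267967 and 3974274 (BA vs AV) or 4589304 and 5072766 (BA vs AP). In the second table the lowest value is 2 and between 81.6% and 91.4% of low values lay within 0.05 read of whole steps of 0.7085 to 1.226, from which the level of 3 reads was taken. It covers counting error only, and the depth behind the first table is unknown.

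Genes were matched to GENCODE M21 (9871 of 9872 and 11778 of 11820 identifiers). Each table was fitted alone with limma 3.58.1 (R 4.3.3) on log2(value + 1), without covariates, over all listed genes. Lengths are the union of exons. Ratios within mice were tested by exact permutation (scipy 1.17.1). The fit was tested on simulated data. The members, classes and lists were chosen with earlier results of these data known. Named genes were 32 core members, the largest change in each direction of each role, and both genes of each pair, and further called or listed genes, the pathway genes and the pairs' promoters were named with their values in view. Of the listed genes, 2 are included in the counts and medians and are not reported here one by one. The alternatives tried were the pseudocount (0.5 and 10), a mean of at least 20, the variance prior, scaling, an adjusted p under 0.01, each mouse left out, the replicate number as a block and removal of the offset of 2. Python 3.11.15, numpy 2.4.6, pandas 2.3.3 and matplotlib 3.10.9 were used. Comparisons of AV with AP mice were not made, since the tables were normalized separately.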

Additional observations from a re-analysis of the deposited data

How the results depend on the processing

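The 19 calls between BA and AV mice became 11 at an adjusted p under 0.01, with 3 lower, and 13 were lower with mice centred on their medians. Leaving out 1 mouse gave 12 to 20 calls, with 3 (without BA replicate 1) to 10 lower (without AV replicate 3). The median log2 fold change over the listed genes, 0.24, became 0.43 with equal sums, 0.16 with centring, 0.19 with a pseudocount of 10 and 0.14 to 0.20 with 1 mouse left out. For the neuronal forms it became 1.35 with equal sums and 0.91 to 1.27 with 1 mouse left out, and for the widely expressed forms -0.11 and -0.42 to -0.22. Whether the replicate numbers pair the mice was not settled. Deviations of same-numbered mice correlated at 0.02, 0.12 and 0.08 (BA and AP) and at -0.06 and -0.04 (BA and AV). With 2 AV mice, their deviations from their own mean are equal and opposite, so the BA and AV values cannot show pairing. Every BA and AP mouse correlated best with its own number, a hint from the data only. With the replicate number as a block, 8 members were called in AV mice, 7 higher and 1 lower, with a median of 0.19, and 0 in AP mice, and 9.83% of all genes in place of 29.7% were called. The count of 0 in AP mice became 1 without AP replicate 1 (Rims1), and their median over the listed genes turned from 0.0025 to -0.0064 with a mean of at least 20, to -0.024 with centring and to -0.054 without AP replicate 3, with a range up to 0.061 over mice left out. That of the widely expressed forms turned from -0.03 to 0.017 without BA replicate 2 (range from -0.072), and that of the neuronal forms, 0.39, was 0.015 without AP replicate 3. Named genes that changed sign, none of them called, were Vamp1 in AV mice (0.10 with equal sums, -0.27 to 0.080 over mice left out, with 0.023 without BA replicate 3) and, in AP mice with 1 mouse left out, Vamp1 (-0.041 to 0.41), Stx4a (-0.31 to 0.25), Napb (-0.021 to 0.81), Synj1 (-0.18 to 0.34), Dnm2 (-0.14 to 0.077) and Vamp3 (-0.10 to 0.090). Other listed genes were checked for sign under scaling only. Stx18 in AV mice and Napg and Syt14 in AP mice changed sign with equal sums, and Vamp4 in AP mice with centring. The causes were not tested. With 2 or 3 mice per group, a gene that did not pass may still differ. A single AV mouse left after omission was assumed to vary like the BA mice.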
